A study of Drosophila melanogaster with 12 samples.

Results

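The nuage and Tudor domain genes described here are vas, spn-E, tej, qin, krimp, tud, papi, vret and CG8920, the gene named tapas. These 9 genes were taken by name and known function, and all 9 are among the 15240 genes of a count table that also holds 127 transposable elements (TEs). The table reports rRNA-depleted RNA from whole testes of Drosophila melanogaster, with 3 libraries of wild type and 3 libraries of klp10A RNAi, in flies 0 to 2 days old and with 300 testis pairs in each library. The klp10A RNAi genotype is nos-gal4>UAS-klp10ARNAi, in which nos-gal4 drives a hairpin against the microtubule-depolymerizing kinesin Klp10A in germ cells. Whether the wild type flies carried nos-gal4 alone is not given in the sources used here. Because the driver acts in germ cells and whole testes were taken, each library also holds RNA of somatic cells, and in such bulk samples fewer cells of a type and less RNA per cell cannot be told apart.

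The piRNA pathway silences TEs in the germline through small RNAs bound by PIWI proteins. In the cytoplasm this takes place largely in nuage, a granule around the nucleus of germ cells, where Aubergine and Argonaute 3 cut TE transcripts and antisense precursors in turn and so amplify piRNAs in the ping-pong cycle. RNA helicases such as Vasa and scaffold proteins with Tudor domains, which bind methylated arginines of PIWI proteins, assemble nuage. In the fly testis the same pathway also silences the Stellate repeats.

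The libraries held 18634687 to 25536724 counts. Levels are given as CPM, the count divided by the total of its library after TMM scaling, which sets libraries to a common scale from most genes and TEs, and multiplied by 1e+06. Klp10A itself had 1458, 802 and 1527 counts in wild type replicates 1 to 3 against 327, 364 and 313 counts in klp10A RNAi replicates 1 to 3, a log2 fold change of -2.35 ± 0.16 (SE, edgeR adjusted p = 0.00105, n = 3 per genotype). Every RNAi library was below every wild type library, although the adjusted p became 0.0114 without klp10A RNAi replicate 1 and 0.0174 without klp10A RNAi replicate 3. Wild type replicate 2 stood farthest from its group, with a median absolute log2 deviation of 0.31 over genes and TEs against 0.11 to 0.24 in the other libraries. Genes named only by a CR number, which are mostly noncoding, took 30.6% to 51.6% of the counts in wild type and 24.9% to 37.2% in klp10A RNAi, so the scaling of the libraries bears on each level below.

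None of the 9 genes passed the limit of an adjusted p under 0.01. All 9 were tested among 12100 genes and TEs, of which edgeR called 245, or 2.02%. The DESeq2 Wald test called 0 of the 9 against 6.46% of all features, and limma-voom called 0 of the 9 against 1.75%. At an unadjusted p under 0.05, edgeR picked out vret alone, 1 of 9 against 25.2% of all features. At an adjusted p under 0.1, 1685 of the 12100 features passed in either direction, and 4.1% passed and were higher in klp10A RNAi. Of the 9 genes, vret alone passed there, and it was higher. That pass was lost with DESeq2 (adjusted p = 0.126), with a replicate block (adjusted p = 0.265) and in 5 of the 6 edgeR fits with 1 library left out (adjusted p = 0.147 to 0.257). A p that misses the limit does not show that a gene kept its level, so the interval of each difference is given with it.

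By library, krimp and vret were higher in all 3 klp10A RNAi libraries than in any wild type library. That is 2 of 9 genes, against 17.1% of all features separated in this direction. No gene of the 9 was lower in every klp10A RNAi library, against 18.4% of all features. The fitted log2 fold change was above 0 for 6 genes and below 0 for 3 genes (tej, tud and CG8920), with a median of 0.12 against 0.01 over all features tested.

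**Figure D1:**
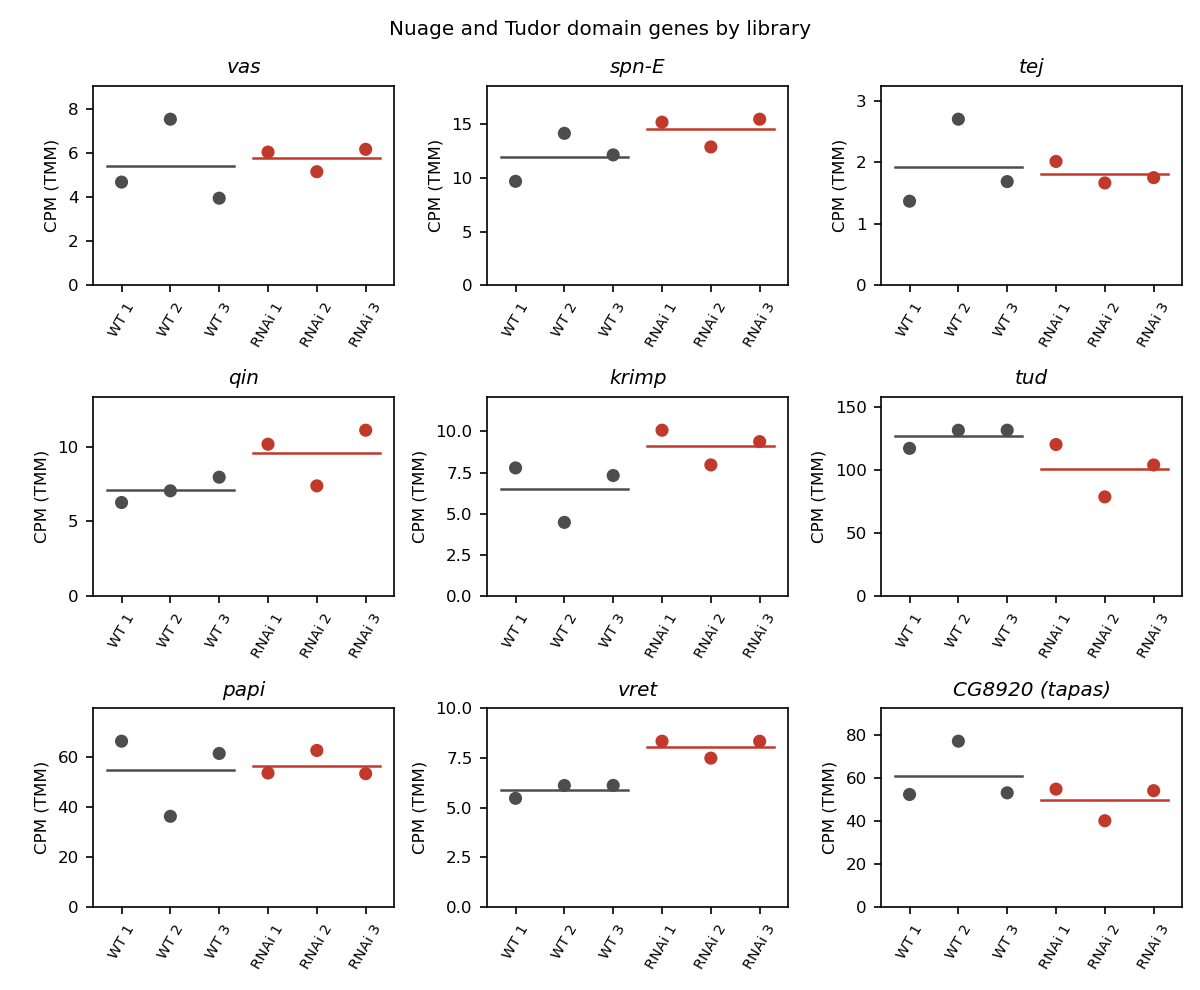
Level of each of the 9 genes in CPM after TMM scaling (y axis, from 0) in the 3 wild type (WT, grey) and 3 klp10A RNAi (red) libraries, where each point is a library and each line the mean of its genotype. The genotypes are separated for krimp and vret, and the wild type libraries are widely spread for vas, tej, papi, krimp and CG8920.

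Among the RNA helicases, vas encodes the DEAD-box helicase that defines nuage and marks germ cells in most animals. In wild type replicates 1 to 3 it had 4.68, 7.54 and 3.95 CPM, from 89, 106 and 82 counts. In klp10A RNAi replicates 1 to 3 it had 6.04, 5.15 and 6.17 CPM, from 150, 130 and 148 counts. All 3 klp10A RNAi values lay inside the wild type range, which was set by the high replicate 2 and the low replicate 3. The means were 5.39 ± 1.90 and 5.79 ± 0.555 CPM (SD, n = 3 per genotype), and the log2 fold change was 0.12 ± 0.24 (SE, edgeR adjusted p = 0.767), with a 95% interval from 0.741-fold to 1.59-fold. The value was 0.42 without wild type replicate 2 and -0.05 without wild type replicate 3. The annotated span of vas contains vig and solo, and reads of overlapping genes cannot be told apart where the strand was not used in counting. vig had 2210, 916 and 2010 counts in wild type against 1960, 2452 and 1915 counts in klp10A RNAi, so its low library was the one in which vas was high.

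The other helicase gene, spn-E, encodes a DExH-box helicase with a Tudor domain that is needed for silencing of TEs and Stellate. It had 9.68, 14.2 and 12.1 CPM in wild type against 15.2, 12.9 and 15.5 CPM in klp10A RNAi. The genotypes overlapped through a single pair, the high wild type replicate 2 and the low klp10A RNAi replicate 2. Its log2 fold change was 0.28 ± 0.17 (SE, edgeR adjusted p = 0.335), with an interval from 0.927-fold to 1.59-fold. Pbp45, which lies within the span of spn-E, had only 7 to 21 counts per library.

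A partner of both helicases is encoded by tej, whose protein carries a LOTUS and a Tudor domain and binds Vasa and Spindle-E in nuage. It had 1.37, 2.70 and 1.69 CPM in wild type, from 26, 38 and 35 counts. In klp10A RNAi it had 2.01, 1.66 and 1.75 CPM, from 50, 42 and 42 counts. Counting error alone is wide at this depth, as 26 counts carry an exact 95% Poisson interval of 17.0 to 38.1 counts. The klp10A RNAi values again lay inside the wild type range, and the log2 fold change was -0.057 ± 0.27 (SE, edgeR adjusted p = 0.905), with an interval from 0.622-fold to 1.48-fold. Without wild type replicate 2, in which tej was highest, the log2 fold change was 0.24.

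qin and krimp act on the ping-pong step itself. The qin product, a RING and Tudor domain protein, keeps ping-pong between Aubergine and Argonaute 3 rather than between copies of Aubergine. qin had 6.26, 7.04 and 7.95 CPM in wild type, from 119, 99 and 165 counts. In klp10A RNAi it had 10.2, 7.37 and 11.1 CPM, from 252, 186 and 266 counts. Replicates 1 and 3 of klp10A RNAi were above all wild type libraries, and replicate 2 fell between wild type replicates 2 and 3. The log2 fold change of 0.43 ± 0.19 (SE, edgeR adjusted p = 0.203) had an interval from 0.997-fold to 1.81-fold. The span of qin contains several other genes. The gene Tssk, listed as CG14305, had 2688, 1177 and 2613 counts in wild type against 3239, 3865 and 3095 counts in klp10A RNAi. Another, CG14301, had 88, 44 and 62 counts in wild type against 176, 171 and 183 counts in klp10A RNAi (edgeR adjusted p = 0.0223). CG31224, which partly overlaps qin, had 650, 501 and 739 counts against 859, 857 and 878 counts. Tssk and CG31224 thus had more counts than qin in every library. The part of these genes in the counts of qin was not tested.

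Krimper, the product of krimp, is a Tudor domain scaffold that brings Argonaute 3 and Aubergine together. Its gene had 7.79, 4.48 and 7.32 CPM in wild type, from 148, 63 and 152 counts. In klp10A RNAi the levels were 10.1, 7.97 and 9.38 CPM, from 250, 201 and 225 counts. The genotypes did not overlap, but the gap between wild type replicate 1 and klp10A RNAi replicate 2 was narrow, and wild type replicate 2 was far below its group. Mean levels were 6.53 ± 1.79 and 9.14 ± 1.07 CPM (SD, n = 3 per genotype). The log2 fold change was 0.47 ± 0.22 (SE, edgeR adjusted p = 0.214), with an interval from 0.987-fold to 1.95-fold, and it was 0.28 without wild type replicate 2. No annotated gene overlaps krimp.

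Of the scaffold genes with many counts, tud encodes the protein that gave the Tudor domain its name and that binds methylated Aubergine. It had 117, 132 and 132 CPM in wild type, from 2228, 1850 and 2731 counts. In klp10A RNAi it had 120, 78.7 and 104 CPM, from 2984, 1986 and 2495 counts. Replicates 2 and 3 of klp10A RNAi were below every wild type library, and replicate 1 was above wild type replicate 1. Means were 127 ± 8.30 and 101 ± 20.9 CPM (SD, n = 3 per genotype). The log2 fold change of -0.33 ± 0.18 (SE, edgeR adjusted p = 0.304) had an interval from 0.594-fold to 1.07-fold, and was -0.18 without klp10A RNAi replicate 2.

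papi encodes a protein with KH and Tudor domains that binds Argonaute 3 in flies, and whose silkworm counterpart helps to trim piRNA ends at mitochondria. It had 66.5, 36.4 and 61.6 CPM in wild type, from 1264, 512 and 1278 counts. In klp10A RNAi it had 53.8, 62.8 and 53.5 CPM, from 1334, 1584 and 1283 counts. The genotypes overlapped, with wild type replicate 2 below every other library and klp10A RNAi replicates 1 and 3 below wild type replicates 1 and 3. A log2 fold change of 0.046 ± 0.23 (SE, edgeR adjusted p = 0.907) had an interval from 0.721-fold to 1.48-fold. It was -0.18 without wild type replicate 2 and -0.032 without klp10A RNAi replicate 2, so its sign rested on those libraries.

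vret, whose Tudor domain product acts in the making of primary piRNAs from long precursors, was the most reproducible of the genes with few counts. It had 5.47, 6.12 and 6.12 CPM in wild type, from 104, 86 and 127 counts. In klp10A RNAi it had 8.34, 7.49 and 8.34 CPM, from 207, 189 and 200 counts. The genotypes did not overlap, and the gap between them was wider than the spread within either. Mean levels were 5.90 ± 0.373 and 8.06 ± 0.490 CPM (SD, n = 3 per genotype). The log2 fold change was 0.45 ± 0.14 (SE, edgeR adjusted p = 0.0886), a 1.37-fold difference with an interval from 1.10-fold to 1.70-fold, the only one of the 9 intervals that did not include equality. This interval is not adjusted for the number of genes tested. The neighbouring gene CG6985, which partly overlaps vret, had 140, 68 and 135 counts in wild type against 157, 199 and 208 counts in klp10A RNAi.

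CG8920 encodes Tapas, the fly relative of the mammalian Tudor domain protein Tdrd7, which acts together with Qin. It had 52.3, 77.1 and 53.1 CPM in wild type, from 995, 1084 and 1102 counts. In klp10A RNAi it had 54.8, 40.2 and 54.1 CPM, from 1361, 1013 and 1298 counts. Replicates 1 and 3 of both genotypes lay close together, and the genotypes differed in replicate 2, high in wild type and low in klp10A RNAi. The log2 fold change was -0.29 ± 0.21 (SE, edgeR adjusted p = 0.401), with an interval from 0.590-fold to 1.13-fold. Without wild type replicate 2 it was -0.085. MED8, which partly overlaps CG8920, had 88, 107 and 117 counts in wild type against 153, 172 and 148 counts in klp10A RNAi.

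**Figure D2:**
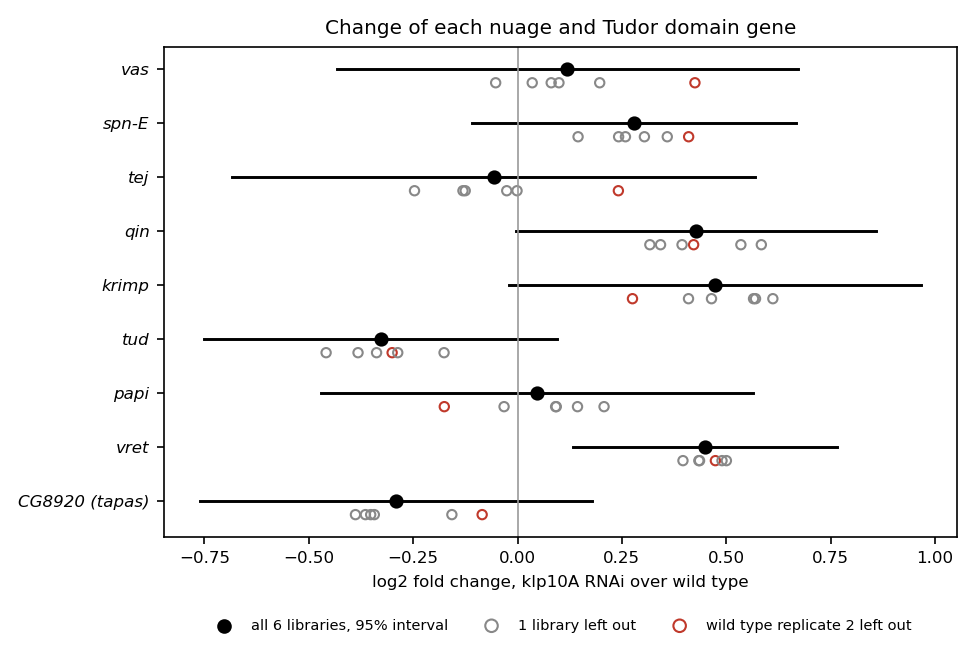
Log2 fold change of each gene, klp10A RNAi over wild type (x axis), with black points and 95% intervals from all 6 libraries and open circles for fits with 1 library left out, in red for wild type replicate 2. The interval of vret lies above 0, and leaving out wild type replicate 2 moves vas, tej, papi, CG8920 and krimp the most.

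Among the scalings tried, only total counts changed the sign of some of these values. DESeq2 size factors, TMM from genes alone and TMM from genes without CR genes left tej at -0.062 to -0.055. Under the same scalings tud stayed at -0.33 and CG8920 at -0.29. With total counts in place of TMM, the median log2 fold change of all features was 0.50, a shift of 0.49. The 3 genes with negative values, tej, tud and CG8920, then had log2 fold changes of 0.46, 0.19 and 0.26, and relative to the shifted median they were at -0.040, -0.31 and -0.24. On the same total count scale vret was at 0.94, krimp at 0.95 and qin at 0.93, and relative to the median they were at 0.45, 0.46 and 0.43. The summed level of the 9 genes was 271, 287 and 285 CPM in wild type against 281, 224 and 264 CPM in klp10A RNAi. The genotypes overlapped in this sum, which is dominated by tud, papi and CG8920. Its log2 ratio of means was -0.13, and 0.37 with total counts.

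The 9 genes did not vary as a block within wild type. Compared with the mean of the other 2 wild type libraries, replicate 2 was at 1.77 times the level for tej, 1.75 times for vas, 1.46 times for CG8920 and 1.30 times for spn-E. In the same library papi was at 0.569 times and krimp at 0.593 times, while tud, vret and qin were at 1.06, 1.06 and 0.991 times. This library was thus high for 4 of the genes, low for krimp and papi, and close to its group for the other 3. Replicate 2 of klp10A RNAi was lower than its partners for 8 of the 9 genes, from 0.694 times for qin to 0.898 times for vret, and higher for papi alone, at 1.17 times. These 2 libraries also stood at the ends of the spermatid marker sum. Wild type replicate 2 had the lowest sum of spermatid markers, 2568 CPM against 3047 and 2688 CPM in wild type replicates 1 and 3, and klp10A RNAi replicate 2 had the highest, 3372 CPM against 2610 and 2669 CPM. The part of cell composition in the levels of the 9 genes was not tested.

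**Figure D3:**
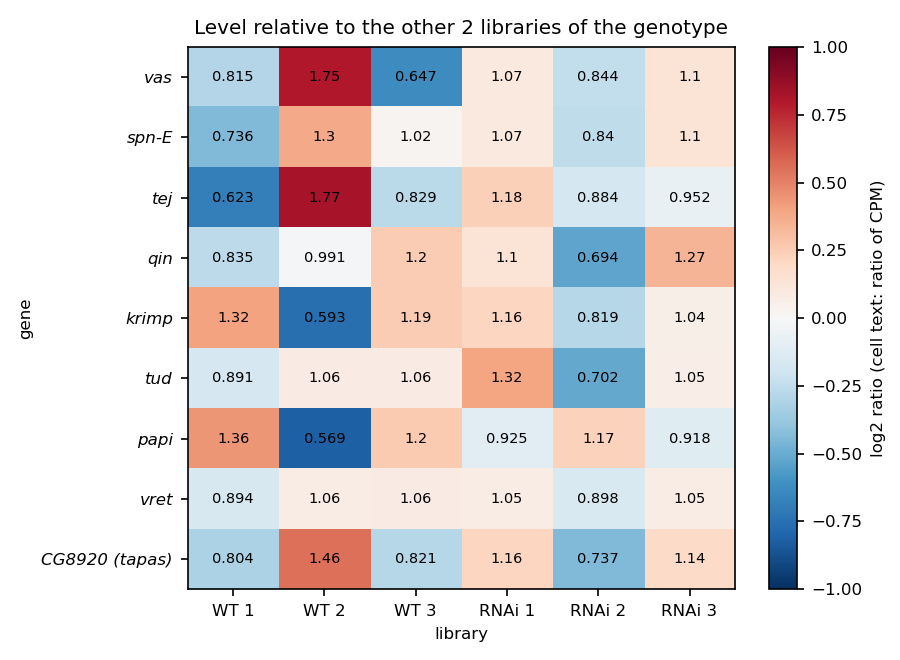
Level of each gene (rows) in each library (columns) over the mean of the other 2 libraries of its genotype, given as a ratio in each cell and as colour on a log2 scale (blue low, red high). Wild type replicate 2 holds both the highest ratios, 1.77 for tej and 1.75 for vas, and the lowest, 0.569 for papi and 0.593 for krimp.

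Ratios between the genes within a library do not depend on the scaling. This comparison was chosen after the values were seen, with tud as the denominator because it had the most counts. Per 1000 counts of tud, vret had 46.7, 46.5 and 46.5 counts in wild type against 69.4, 95.2 and 80.2 counts in klp10A RNAi. qin had 53.4, 53.5 and 60.4 counts in wild type against 84.5, 93.7 and 107 counts in klp10A RNAi. Both thus varied little beside tud in wild type and were higher beside it in every klp10A RNAi library, including replicate 2. In that library tud itself was low, at 0.702 times the mean of its partners. There qin, at 7.37 CPM, lay inside its wild type range of 6.26 to 7.95 CPM, while vret, at 7.49 CPM, lay above its own. The match of the 3 wild type values of vret is closer than counting error allows to be read as constancy. Its 86 counts in wild type replicate 2 alone carry an exact 95% Poisson interval of 68.8 to 106 counts.

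krimp had 66.4, 34.1 and 55.7 counts per 1000 counts of tud in wild type against 83.8, 101 and 90.2 in klp10A RNAi. For spn-E the values were 82.6, 108 and 92.3 in wild type against 126, 164 and 149 in klp10A RNAi. Separation of the genotypes was therefore seen for 4 of the 8 other genes, all higher beside tud in klp10A RNAi. Set over tud in the same way, 29.6% of all features were separated and higher. The lower fitted value of tud in klp10A RNAi favours this direction. In CPM, krimp and vret were separated as well, while spn-E and qin overlapped. vas, tej, papi and CG8920 overlapped. Over the 36 pairs among the 9 genes, 12 ratios were separated between genotypes in either direction, where 34.8% of all pairs of features were. The share among the pairs was thus near that of all features, and 5 of the 12 pairs included CG8920 and 4 included tud.

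**Figure D4:**
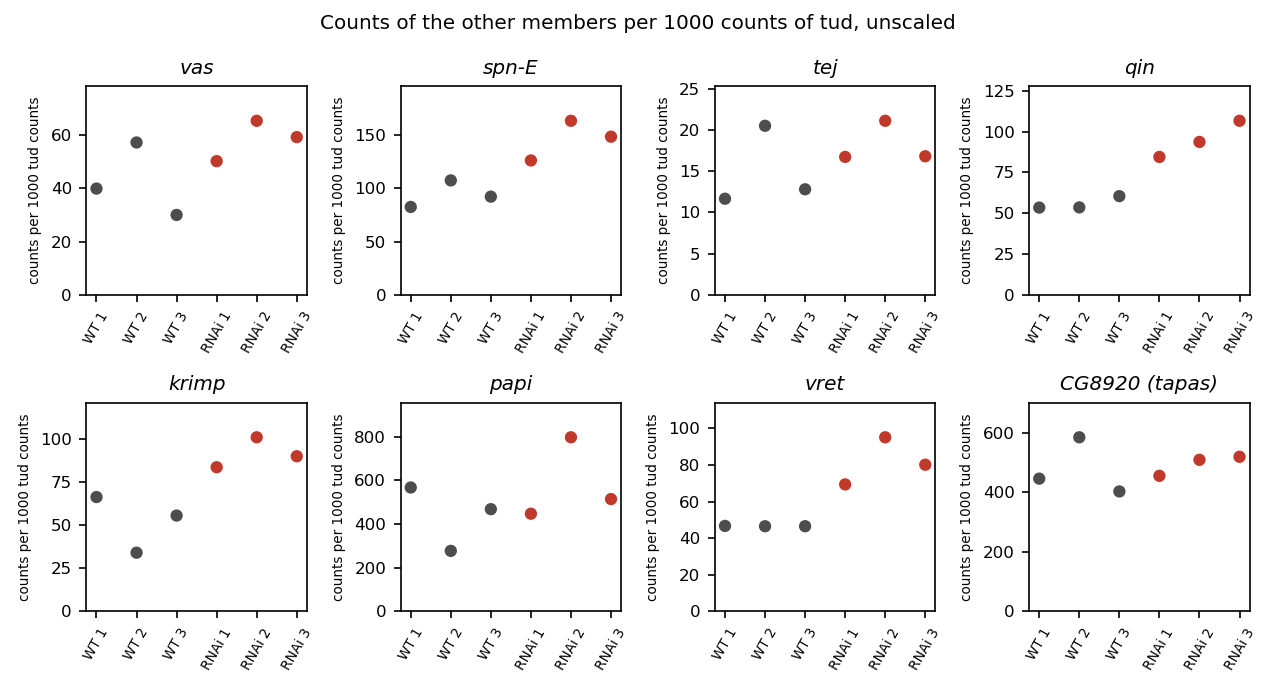
Counts of each of the other 8 genes per 1000 counts of tud (y axis, from 0, with no scaling between libraries) in the 3 wild type (grey) and 3 klp10A RNAi (red) libraries. The genotypes are separated for spn-E, qin, krimp and vret, with vret at 46.5 to 46.7 in wild type and 69.4 to 95.2 in klp10A RNAi.

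The rest of the piRNA pathway was compared through 4 lists with 34 measured genes, of which 33 were tested. edgeR called 0 of the 33, DESeq2 called 1 (CG3893) and limma-voom called 0, against 2.02%, 6.46% and 1.75% of all features. Of the 33, 7 had an unadjusted p under 0.05 in edgeR, against 25.2% of all features. Log2 fold changes were above 0 for 27 genes and below 0 for 6, with a median of 0.15 beside the 0.12 of the 9 nuage and Tudor domain genes. Higher values without overlap were seen for 11 genes, against 17.1% of all features, and lower ones for 1 gene, del, against 18.4%.

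The 6 genes for PIWI proteins and their loading had a median log2 fold change of 0.23, from AGO3 at -0.091 to aub, the gene of Aubergine, at 0.59 ± 0.20 (SE, edgeR adjusted p = 0.111). aub had 5.73, 6.26 and 9.20 CPM in wild type against 10.8, 9.75 and 11.5 CPM in klp10A RNAi. It was thus higher in every klp10A RNAi library, as krimp and vret were. The 4 other ping-pong and arginine methylation factors had a median of 0.18, from csul, a subunit of the methylosome that marks PIWI proteins for Tudor domains, at -0.040 to squ at 0.47 (edgeR adjusted p = 0.0807).

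In the 9 genes of piRNA processing at mitochondria and Yb bodies, the median was 0.32. BoYb was lowest at -0.016, and zuc, the gene of the nuclease that cuts piRNA precursors, was highest at 0.92 (edgeR adjusted p = 0.163) from only 4 to 15 counts per library. The 14 tested genes of cluster transcription, export and nuclear silencing had a median of 0.080. Their ends were del, which takes part in transcription of dual-strand clusters, at -0.37 (edgeR adjusted p = 0.195) and CG3893, the gene named arx, at 1.15 (edgeR adjusted p = 0.0181). CG3893 had 23, 13 and 24 counts in wild type against 55, 70 and 58 in klp10A RNAi, the widest difference among the 33 genes.

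A further list held 6 other genes with Tudor domains, some of which act outside the piRNA pathway, and had a median of -0.020. edgeR, DESeq2 and limma-voom each called 0 of the 6, against 2.02%, 6.46% and 1.75% of all features. At an unadjusted p under 0.05 in edgeR there were 0 of the 6, against 25.2% of all features. The 6 genes ran from Tudor-SN, a nuclease-like protein found in many cell types, at -0.48 (edgeR adjusted p = 0.377) to CG9925 at 0.19. Tudor-SN had 91.4, 217 and 105 CPM in wild type against 108, 80.1 and 108 CPM in klp10A RNAi. Its high value in wild type replicate 2 and low value in klp10A RNAi replicate 2 followed the same order as CG8920.

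**Figure D5:**
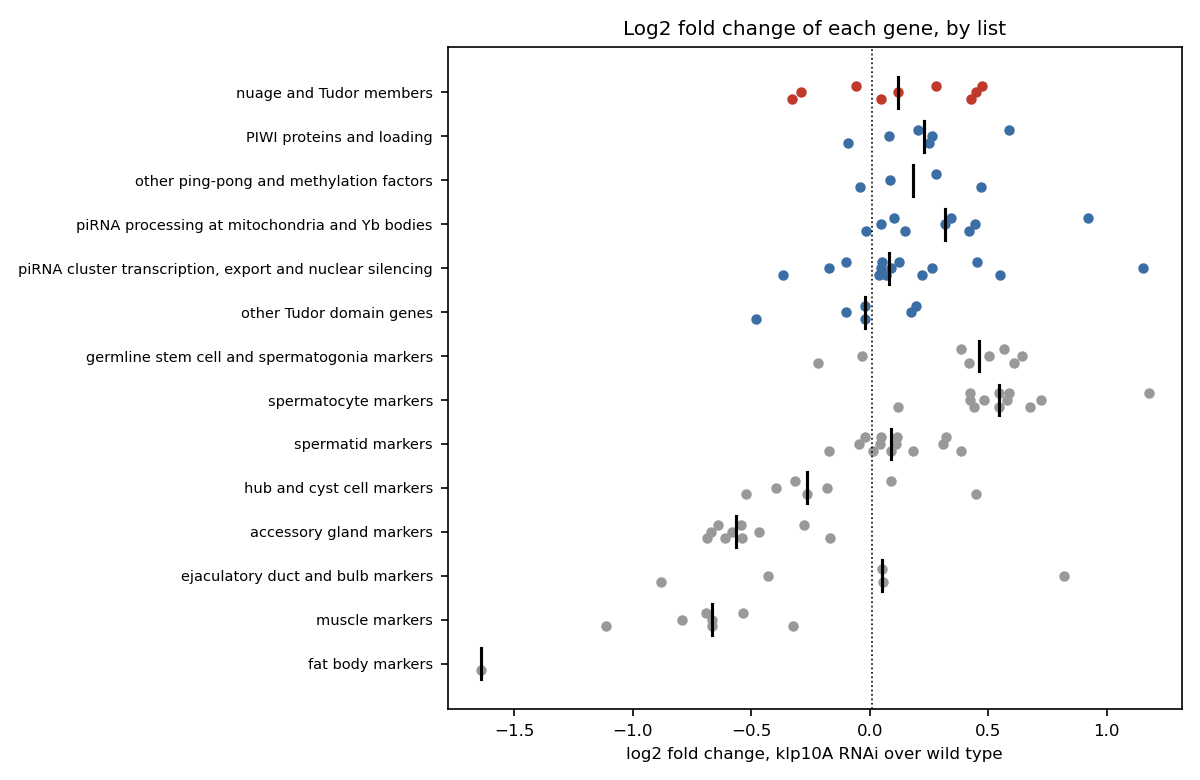
Log2 fold change, klp10A RNAi over wild type (x axis), of each tested gene of the 9 nuage and Tudor domain genes (red), 4 other piRNA pathway lists and 6 other Tudor domain genes (blue) and 8 marker lists (grey), where bars give list medians and the dotted line the median of all features, 0.01. Spermatocyte markers have a median of 0.55 and muscle markers one of -0.67, both farther from 0 than the 0.12 of the 9 genes.

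Markers of the cells that a testis library can hold moved beside these genes. For the 8 markers of germline stem cells and spermatogonia the summed level was 149 to 181 CPM in wild type and 188 to 202 CPM in klp10A RNAi, with 5 of 8 separated and higher, against 17.1% of all features. For the 12 spermatocyte markers it was 182 to 226 CPM and 279 to 319 CPM, with 10 of 12 separated and higher and a median log2 fold change of 0.55. Both germ cell sums were thus higher in every klp10A RNAi library, as were krimp and vret. The 13 spermatid markers overlapped in sum, 2568 to 3047 CPM and 2610 to 3372 CPM, with 1 of 13 separated.

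Somatic markers were lower in some lists and mixed in others. For muscle 0 of 7 and for the accessory gland 0 of 10 markers had a log2 fold change above 0. Markers of hub and cyst cells and of the ejaculatory duct went both ways. The 7 muscle markers summed to 415 to 514 CPM in wild type and 231 to 285 CPM in klp10A RNAi, with 6 of 7 separated and lower, against 18.4% of all features. The 7 hub and cyst cell markers summed to 79.8 to 84.8 CPM and 66.2 to 82.0 CPM, and 2 of 7 had log2 fold changes above 0. Of these 7, 1 was separated and higher (eya, log2 fold change 0.45) and 1 separated and lower (os, the row of upd1). The 10 accessory gland markers summed to 1978 to 3593 CPM and 1670 to 2163 CPM, which overlap. Their median log2 fold change was -0.56, with 3 of 10 separated and lower and 0 separated and higher. The 5 ejaculatory duct and bulb markers summed to 869 to 1129 CPM and 662 to 747 CPM, so RNA of organs next to the testis was present in all 6 libraries. Within that list 3 of 5 markers had log2 fold changes above 0 and the median was 0.052. PebIII at 0.82 was separated and higher, while Gld at -0.88 and Dup99B at -0.43 were separated and lower. Of the fat body markers, Lsp2 alone was tested, at a log2 fold change of -1.64, and Fbp1 had 0 to 1 counts per library.

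edgeR called 0 genes in each of the 8 marker lists, against 2.02% of all features. At an unadjusted p under 0.05, where 25.2% of all features lie, it picked out 4 of the spermatogonia, 10 of the spermatocyte, 0 of the spermatid, 1 of the hub and cyst cell, 6 of the accessory gland, 2 of the ejaculatory duct, 6 of the muscle and 1 of the fat body markers. DESeq2, which called 6.46% of all features, called 1 of 12 spermatocyte markers (rye, listed as Taf12L). It called 2 of 5 ejaculatory duct markers (PebIII, higher in klp10A RNAi, and Gld, lower) and 4 of 7 muscle markers (Mhc, Mlc2, Act57B and Tm2). It also called the 1 fat body marker tested (Lsp2), and limma-voom called 0 in these lists, against 1.75% of all features. The marker with the most counts was Rbp9 for spermatogonia, fzo for spermatocytes, Mst87F for spermatids, Fas3 for hub and cyst cells, Acp36DE for the accessory gland, Dup99B for the ejaculatory duct and Mhc for muscle. The part of these markers in the levels of krimp, vret, qin and the other genes of nuage was not tested.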

How the data were processed

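Groups and replicate numbers were taken from the sample labels. The counts were deposited by the authors as whole numbers per gene and TE. Reads of rRNA-depleted libraries were aligned by the authors to Dm3 with STAR (2.6.0a in the submitters' processing notes) and counted with TEtranscripts, which shares reads with many alignments among their places. The strand setting of the counting is not given in the sources used here. The 2 piRNA tables, with 123 rows each, name none of the 9 genes and were not used.

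Counts were tested with edgeR 4.0.16 in R 4.3.3, with TMM over genes and TEs and filterByExpr by genotype. The quasi-likelihood F-test was used, with Benjamini-Hochberg adjustment over all 12100 features tested. The limit of 0.01 is the one in the methods of the study, whose plot of TE levels marks a false discovery rate under 0.1. DESeq2 1.42.0 and limma-voom (limma 3.58.1), other scalings, filters and limits, a block for the replicate number and the omission of single libraries were alternatives. Intervals are 95% intervals of the fit, and Poisson intervals cover counting error only. The fit was tested on simulated data.

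The 9 genes and the lists of genes were chosen with earlier results of these data known. The lists come from general knowledge, and 2 of their symbols were not matched. The text names all 9 genes, Klp10A and some, not all, of the genes that overlap the 9. It also names every called gene of the other pathway lists or else the highest and lowest. Of each marker list it names those at 3 counts or fewer in every library and the one with the most counts. Any further gene was picked with its values in view. Overlaps between genes come from RefSeq annotation of a later build, used for names only. Levels of different genes were not compared, since transcript lengths were not used here.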

Additional observations from a re-analysis of the deposited data

How the results depend on the processing

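Of 135 values of the 9 genes under 15 alternatives, 127 kept their direction and stayed short of the limit, 8 changed sign and 0 passed the limit. The smallest adjusted p among them was 0.0263, for krimp with total counts. The changes of sign were tej at 0.46, tud at 0.19 and CG8920 at 0.26 with total counts, tej at 0.0029 with limma-voom, vas at -0.052 without wild type replicate 3, tej at 0.24 and papi at -0.18 without wild type replicate 2, and papi at -0.032 without klp10A RNAi replicate 2. With total counts the median of all features shifted by 0.49, and tej, tud and CG8920 stayed below the shifted median. The cause of the other changes of sign was not tested. With 1 library left out in turn, vas ran from -0.052 to 0.42, tej from -0.25 to 0.24 and papi from -0.18 to 0.21. Among the 9 genes, 1 was called at an adjusted p under 0.1 and 0 under each other alternative. The log2 ratio of their summed level was 0.37 with total counts and -0.21 to -0.05 with 1 library left out. Klp10A ran from -2.47 to -2.27 with 1 library left out.

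Over all features, the 245 calls became 524 with total counts, 781 with DESeq2, 920 at an adjusted p under 0.05 and 1685 under 0.1. Leaving out 1 library gave 1 to 389 calls, with 1 call without klp10A RNAi replicate 3, 8 without klp10A RNAi replicate 1, 47 without klp10A RNAi replicate 2 and 389 without wild type replicate 2. With a replicate block there were 98 calls and 0 among the 9 genes. Nothing in the labels says that the numbers pair the libraries. Deviations of same-numbered libraries from their group means correlated at -0.34, -0.46 and -0.14, and no library correlated best with its own number. Deviations from a mean of 3 libraries depend on one another, so these correlations cannot show whether a number stands for a shared batch. With 26 to 50 counts of tej per library, depth limits this gene most.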
